A study of Mus musculus with 6 samples.

Results

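Carbonic anhydrases were followed in mouse kidney and in mouse mammary tumor, as 7 genes named by symbol in the gene lists of both count matrices: Car2, Car3, Car4, Car6, Car12, Car14 and Car15. They were 7 of 16 carbonic anhydrase symbols and of 31053 genes in all. The study compared a conventional digest with a microfluidic platform in which minced tissue was digested, eluted at intervals, and then passed through a dissociation and filter device. It gave 6 droplet libraries of single cells, 3 from kidney of male C57BL/6 mice aged 12 weeks and 3 from mammary tumors of female MMTV-PyMT mice aged 10 weeks, whose PyMT transgene is driven by the mammary-active MMTV promoter. The study's reporting notes give a single replicate for sequencing and 1 source mouse for all conditions of a replicate. In each tissue, 1 library came from a 60 min control digest, 1 from the 15 min platform interval and 1 from the 60 min platform interval. Every sample of both tissues, controls included, was minced, digested with type I collagenase, treated with DNase I and red blood cell lysis buffer, and sorted to remove cells that took up SytoxBlue.

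Carbonic anhydrases interconvert carbon dioxide and bicarbonate and so set how fast protons and bicarbonate can move across an epithelium. Car2 and Car3 are cytosolic enzymes, Car4 and Car15 are held at the outer cell surface by a lipid anchor, Car12 and Car14 span the membrane with an outward-facing catalytic domain, and Car6 is the secreted member of the family, known from saliva and milk. In the kidney, cytosolic and surface enzymes work together in the proximal tubule to reclaim filtered bicarbonate, and cytosolic Car2 supplies the proton and bicarbonate transporters of intercalated cells in the collecting duct.

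The measure was the count of unique molecular identifiers (UMIs), which mark captured RNA molecules, so that amplified copies of a molecule count only 1 time. Levels are UMIs of a gene per 1000000 UMIs of the cells summed (CPM). Brackets give exact Poisson 95% intervals for levels and exact intervals for ratios, which cover counting error only. With 1 library per condition there was no replicate check and no test of any difference between conditions. In all, 24212 kidney and 17562 tumor cells lay within the study's bounds for genes detected and mitochondrial UMIs, at median depths of 4583 to 6612 and 8211 to 9476 UMIs a cell, and 53 to 211 barcodes were shared between pairs of kidney libraries and 16 to 21 between pairs of tumor libraries. Cells were gated by markers with a UMI (none of them a carbonic anhydrase). In kidney 20854 cells fell in exactly 1 gate, 1043 in more than 1 and 2315 in none, and in the tumor 16148, 724 and 690. A class name below stands for the cells of its gate.

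In the mm10 mouse genome (GRCm38, GENCODE M21 annotation) Car3 (chr3:14863512-14872523) and Car2 (chr3:14886273-14900770) are neighbours on the plus strand. Car14 lies at chr3:95897768-95904691 on the minus strand, Car6 at chr4:150187015-150201332 on the minus strand, Car12 at chr9:66713686-66766845 and Car4 at chr11:84957786-84966044 on the plus strand, and Car15 at chr16:17835276-17838364 on the minus strand. Car14 overlaps Aph1a on the opposite strand and Car15 overlaps Gm20518 on its own strand, so counts of these 2 members are uncertain where reads could belong to either gene. RefSeq promoter sequences matched 5 of the 7 members (Car4, Car6, Car12, Car14 and Car15). Between the early and middle proximal tubule, described below, the surface enzyme Car4 ran opposite to the surface enzymes Car12 and Car14. The 250 bases before the RefSeq start of each of these 3 genes are therefore shown. Each runs 5′ to 3′ on the gene's strand in build GRCm38.p6, and capitals mark matches to the motifs searched on both strands.
Car4, chr11:84957504-84957753, plus strand: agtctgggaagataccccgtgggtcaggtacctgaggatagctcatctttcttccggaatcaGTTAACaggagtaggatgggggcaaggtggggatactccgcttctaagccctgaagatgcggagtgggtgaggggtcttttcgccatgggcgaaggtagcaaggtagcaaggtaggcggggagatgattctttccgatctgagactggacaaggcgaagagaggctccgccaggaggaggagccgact
Car12, chr9:66713436-66713685, plus strand: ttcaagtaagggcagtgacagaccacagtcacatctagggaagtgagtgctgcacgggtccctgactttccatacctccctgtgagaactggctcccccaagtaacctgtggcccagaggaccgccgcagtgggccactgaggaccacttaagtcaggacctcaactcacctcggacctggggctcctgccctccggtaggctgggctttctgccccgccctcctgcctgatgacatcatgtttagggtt
Car14, chr3:95904686-95904935, minus strand: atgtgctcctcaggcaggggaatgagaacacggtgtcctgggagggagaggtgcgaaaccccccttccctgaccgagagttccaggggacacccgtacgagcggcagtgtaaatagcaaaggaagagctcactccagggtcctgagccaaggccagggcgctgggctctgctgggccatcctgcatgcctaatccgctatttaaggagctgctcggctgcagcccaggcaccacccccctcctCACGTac

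The motifs searched were the HNF1 half-sites GTTAAC and GTTAAT, the forkhead motif TGTTTAC and the hypoxia response element core ACGTG. The Car4 window held GTTAAC, 188 bases before the start, a letter string present in 2.56% of all 32851 promoter windows of this length. The Car14 window held ACGTG on the minus strand, 7 bases before the start, as did 16.6% of all windows, where the core occurs on either strand. In the Car6 window (chr4:150201136-150201385) ACGTG stood on both strands, overlapping, at 148 and 149 bases before the RefSeq start. All distances are to RefSeq starts, which differ from the GENCODE gene bounds above for Car4, Car6, Car14 and Car15. The Car6 window and the Car15 window (chr16:17838187-17838436) lie mostly inside the genes by those bounds. GTTAAT and TGTTTAC, found in 6.43% and 3.17% of windows, were in none of the 5 windows, and the Car12 and Car15 windows held none of the 4 motifs. These matches are a description of letters, and no binding was measured.

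Across whole kidney libraries, the cytosolic Car2 was at 368 CPM [362 to 375] in the control, 371 [366 to 376] in the 15 min library and 281 [277 to 286] in the 60 min library. Car3, the other cytosolic enzyme, was at 105 [102 to 109], 115 [112 to 117] and 82.3 [79.8 to 84.7] CPM. Both were lowest in the 60 min platform library among these kept cells, but with all deposited cells Car2 was at 440, 442 and 447 CPM and Car3 at 129, 181 and 157. The lipid-anchored Car4 was at 81.4 [78.4 to 84.5], 187 [184 to 191] and 51.8 [49.9 to 53.8] CPM, highest in the 15 min library. The membrane-spanning Car12 was at 23.7 [22.1 to 25.4], 43.2 [41.5 to 44.8] and 30.2 [28.7 to 31.7] CPM. Car14 was at 33.0 [31.1 to 35.0], 59.4 [57.5 to 61.4] and 28.6 [27.2 to 30.1] CPM, so all 3 of these surface enzymes peaked in the 15 min library. Car15 was scarce, with 18, 15 and 85 UMIs in the 3 libraries. Secreted Car6 had 0 UMIs in all kidney cells, which allows up to 0.0892, 0.0488 and 0.0573 CPM.

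**Figure D1:**
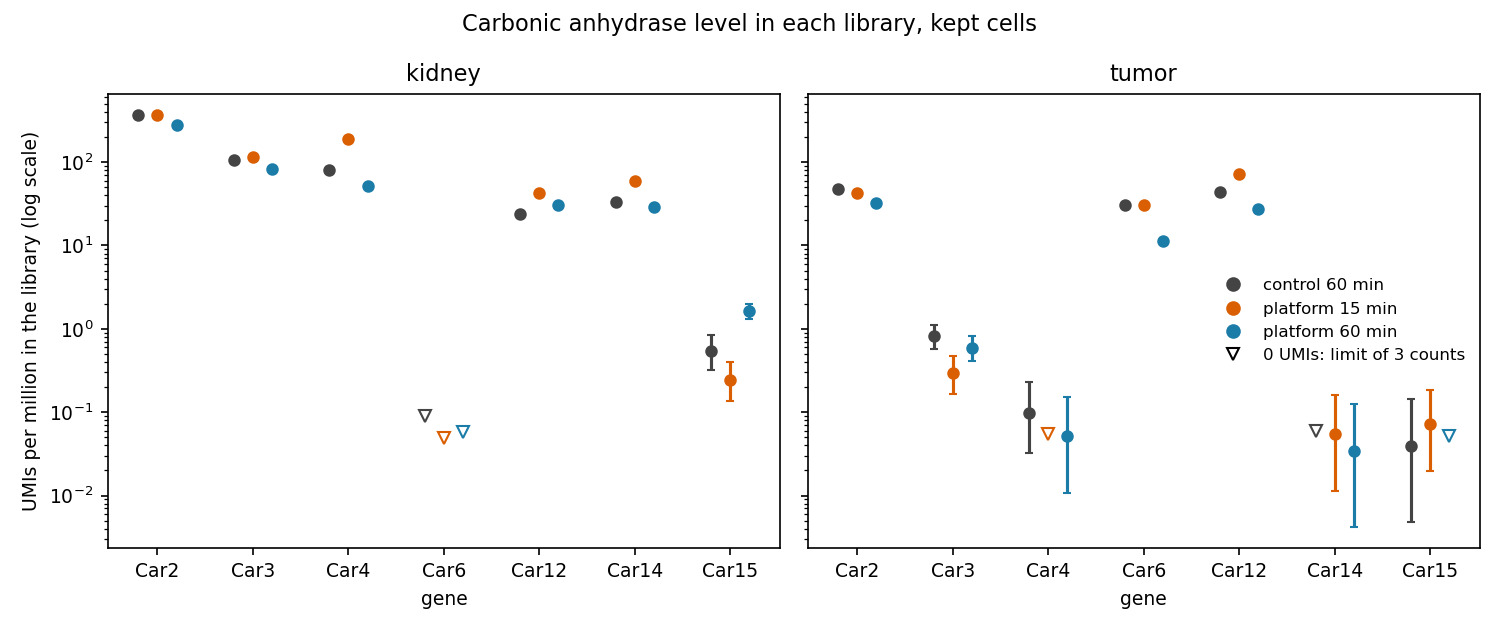
Level of each gene in CPM (log scale) in each kidney and tumor library, with exact Poisson 95% intervals; triangles are the limit that 0 UMIs allows (3 counts). Kidney held all members but Car6, and the tumor held mainly Car2, Car6 and Car12.

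Between the kidney libraries, 2 of the 6 members tested (at least 20 UMIs in the pair) were past 2-fold from the control to the 15 min library, where 30.8% of all 14632 genes tested were. Car4 was 2.30-fold higher [2.20 to 2.40], and Car15 was lower with 15 against 18 UMIs (a log2 ratio of -1.13, and of -0.97 and -0.59 under the 2 other scalings, which ends its call). From the control to the 60 min library 1 of 6 was past 2-fold (Car15, ratio 3.04 [1.81 to 5.37]), against 11.6% of all genes. From the 15 min to the 60 min library 3 of 6 were, against 48.3% of all genes, with Car4 at 0.277 [0.265 to 0.289] and Car14 at 0.481 [0.453 to 0.511] of the 15 min level and Car15 at 6.65 times it [3.81 to 12.4]. With all deposited cells Car14 was at 0.612 [0.591 to 0.633] of the 15 min level and no longer past 2-fold, and Car12, at 1.82 times the control in the 15 min library as kept, was at 2.504 times it [2.401 to 2.61]. The median gene itself moved by -0.42, 0.24 and 0.76 on the log2 scale in these 3 comparisons. Proximal tubule cells made up 43.2, 83.8 and 26.2% of kept cells in the control, 15 min and 60 min libraries, and the median mitochondrial share per cell was 7.38, 20.4 and 8.59%. A library sum cannot tell fewer cells of a type from less RNA per cell, so the classes are described next.

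The proximal tubule, which reclaims most filtered bicarbonate, held 82.3% of all kidney UMIs of Car2, 88.4% of Car3, 94.3% of Car4, 86.5% of Car12 and 94.0% of Car14, in 12177 cells. Car4 stood there at 176 CPM [174 to 179], with 119 [105 to 135] in the thick ascending limb and at most 12.4 in any other class. Car14 stood at 64.9 CPM [63.3 to 66.6] in the proximal tubule. In the thick ascending limb it was at 8.94, but 16 of its 19 UMIs there came from 1 cell. Car3 was at 145 CPM [143 to 148] in the proximal tubule. The mesangial and fibroblast class read higher, at 216 CPM, but all 49 of its Car3 UMIs came from 1 of 39 cells, so the proximal tubule was the leading class by cells (20.8% of cells with a Car3 UMI, against 2.56%). For comparison, 54.2% of proximal tubule cells and 1.65% of macrophages and monocytes, a class outside the tubule, held a Car4 UMI. Their median depths were 6926 and 6294 UMIs. The part of free RNA in such shares was not tested.

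**Figure D2:**
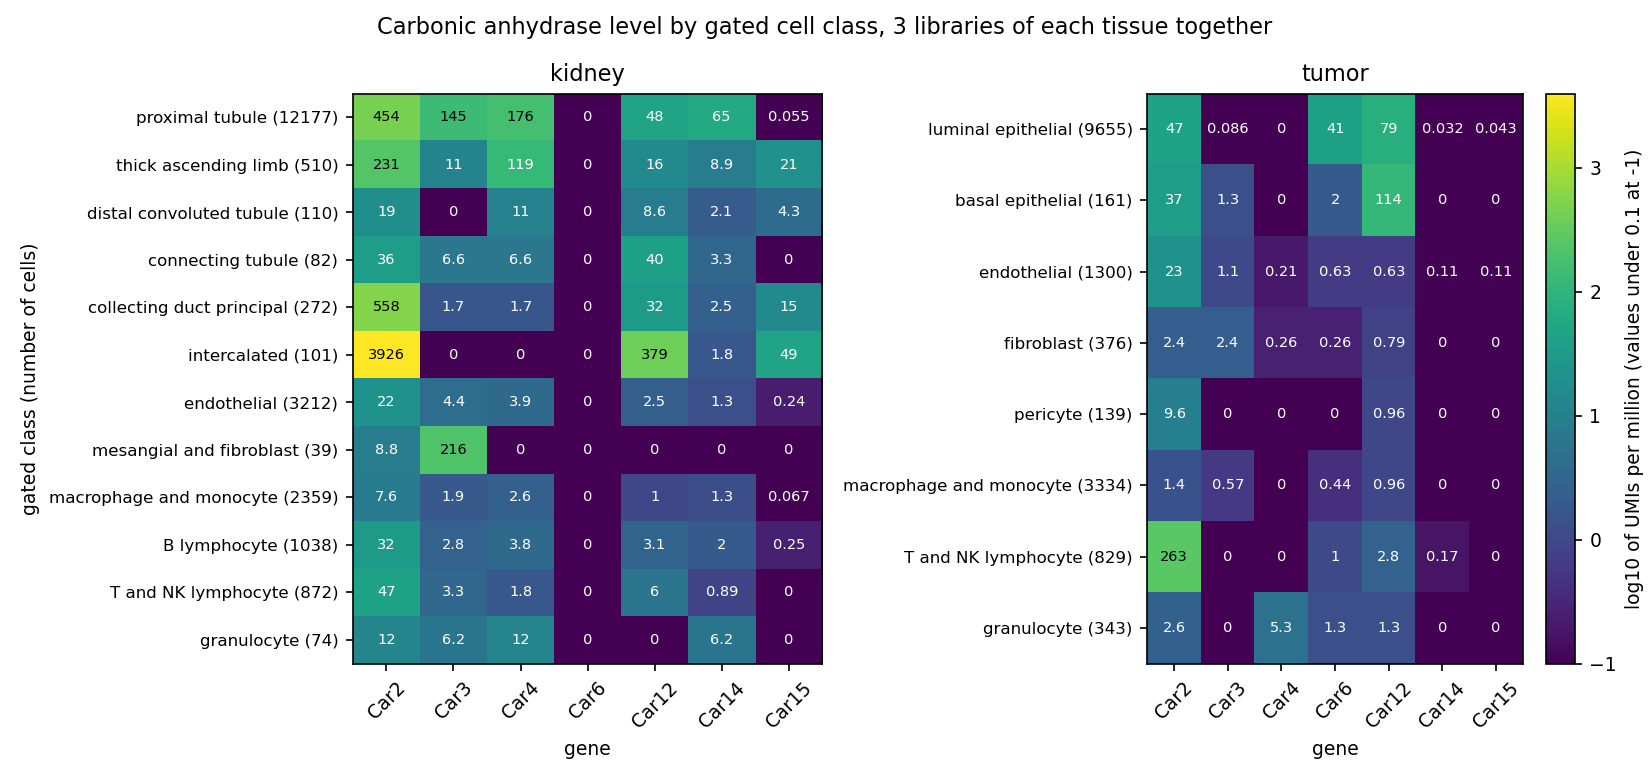
Level of the 7 genes in CPM in each gated class of at least 20 cells, with the 3 libraries of a tissue summed; colour is log10 and the printed numbers are the levels. Kidney intercalated cells stand out for Car2 (3926) and Car12 (379), the proximal tubule for Car4 and Car14, and tumor T and NK lymphocytes for Car2 (263).

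Intercalated cells, the acid and base secreting cells of the collecting duct, had the highest Car2 of any kidney class. The level was 3926 CPM [3764 to 4092] over 101 cells, against 558 [516 to 603] in principal cells and 454 [449 to 458] in the proximal tubule. Without cells also in the connecting tubule gate, principal cells stood at 774 CPM. By library intercalated cells held 4292, 3121 and 3973 CPM in the control, 15 min and 60 min libraries, above every other class in all 3. A Car2 UMI was found in 97.0% of intercalated cells and in 4.45% of macrophages and monocytes, at median depths of 5505 and 6294 UMIs (92.7% and 0.865% after thinning each cell to 1000 UMIs). Car12 was also highest in intercalated cells, at 379 CPM [330 to 434] and at 351, 448 and 372 by library, against 48.0 [46.6 to 49.5] in the proximal tubule and 32.3 [22.8 to 44.3] in principal cells. With all deposited cells these Car12 levels were 700 CPM in intercalated cells and 89.2 in the proximal tubule, still in that order. Car15 was highest there too, at 49.4 CPM [32.8 to 71.4] from 28 UMIs, with 21.2 [15.4 to 28.3] in the thick ascending limb and 15.3 [9.06 to 24.2] in principal cells. Car15 in principal cells was at 26.5 CPM without cells also in the connecting tubule gate. In the proximal tubule Car15 had only 5 UMIs in 12177 cells. Intercalated cells had 0 UMIs of Car3 and of Car4. So 3 of the 6 members measured had their highest class there, where 8.53% of 13061 genes with at least 100 UMIs did.

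The intercalated cells could be split by markers of type A, which secretes acid, and type B, which secretes bicarbonate. Car12 was at 466 CPM [394 to 549] in the 46 type B cells and 141 [72.9 to 246] in the 22 type A cells, a ratio of 3.31 [1.84 to 6.55]. The libraries each gave 399, 466 and 534 CPM in type B, and 139, 0 and 155 in type A, where the 15 min library held only 2 cells. Car15 had 18 UMIs in type B and 0 in type A, where the limit of 3 counts is 35.2 CPM and the type B level was 57.5 [34.1 to 90.9]. Car2 differed less, at 4096 CPM in type B and 3572 in type A (ratio 1.15 [1.01 to 1.304]), and the libraries did not share a direction. A further 22 intercalated cells carried markers of both types and 11 of neither.

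Within the proximal tubule the 5 members divided between the early and middle segments, gated by markers of S1 (3564 cells) and S2 (4769 cells) at median depths of 7164 and 7828 UMIs. Car2 was at 862 CPM in S1 and 187 in S2, a ratio of 4.62 [4.50 to 4.74]. By library Car2 was at 959, 812 and 913 CPM in S1 and at 233, 160 and 257 in S2, so the ranges of the 2 segments did not overlap. Car3 had the steepest gradient, 330 against 26.0 CPM (ratio 12.7 [11.9 to 13.6]), with 373, 314 and 342 CPM in S1 and 44.0, 16.6 and 48.6 in S2. Car12 was 5.83-fold higher in S1 [5.37 to 6.33], at 86.6, 102 and 131 CPM by library against 15.9, 18.2 and 23.2. Car14 was 2.51-fold higher in S1 [2.37 to 2.67], at 99.8, 111 and 100.3 CPM against 43.9, 40.7 and 48.8. Car4 ran the other way, with 66.5 CPM in S1 and 255 in S2 (S1 over S2 0.261 [0.248 to 0.274]), and by library 60.3, 75.6 and 49.9 CPM in S1 against 209, 275 and 214 in S2. All 5 kept their direction in 3 of 3 libraries. In the 125 cells of the late S3 segment Car2 was at 26.5 CPM, Car12 at 3.46 and Car14 at 6.92, each below S2, and Car3 had 0 UMIs, which allows up to 3.46 CPM. Car4 in S3 was at 79.6 CPM [61.9 to 101] and varied from 32.4 to 151 between libraries.

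**Figure D3:**
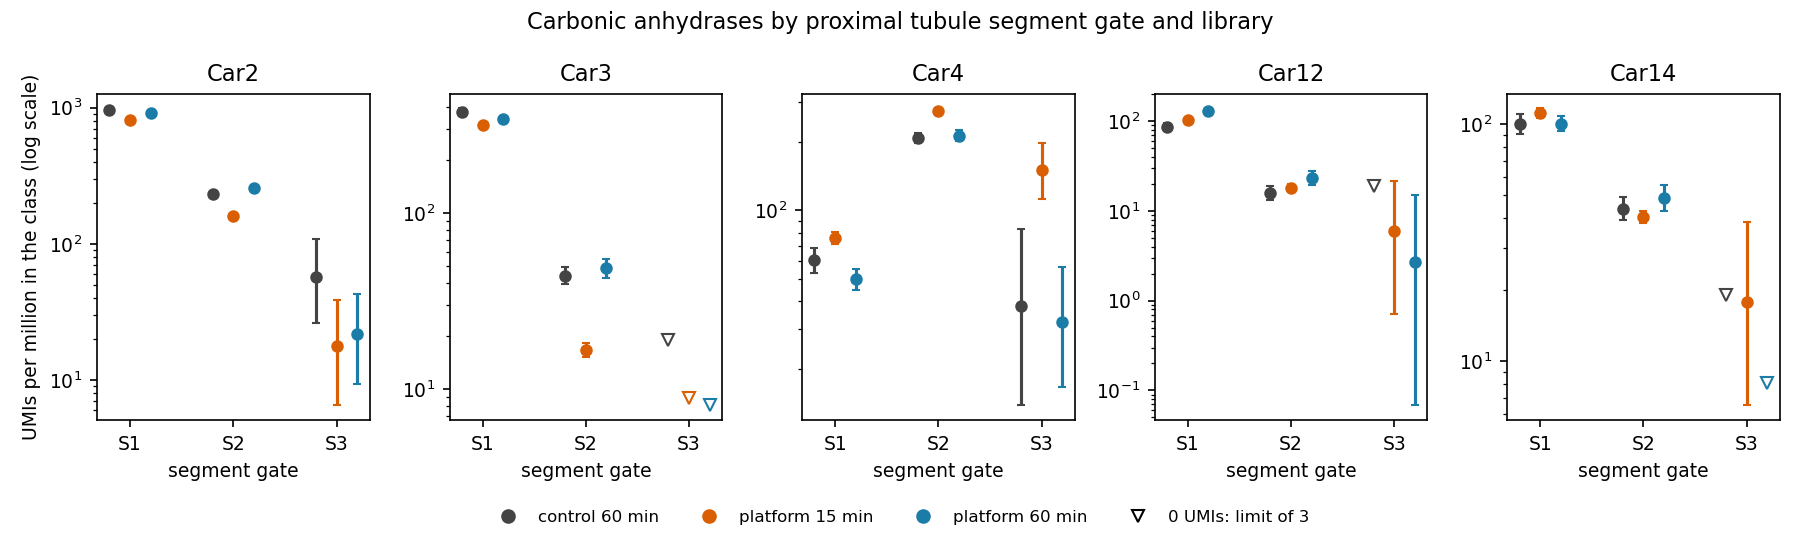
Levels of 5 members in the S1, S2 and S3 gates of the proximal tubule, for each kidney library, in CPM on log scales that differ between panels; bars are exact Poisson 95% intervals and triangles the limit of 3 counts. In every library Car2, Car3, Car12 and Car14 are higher in S1 than S2 and Car4 is higher in S2.

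With the class held to the proximal tubule, 0 of 5 members were past 2-fold from the control to the 15 min library, against 3.39% of 11835 genes. Car4 was 1.41-fold higher [1.35 to 1.47] (144 to 203 CPM), and Car2 and Car3 were at 0.777 [0.758 to 0.797] and 0.751 [0.718 to 0.785] of the control. With all deposited cells Car2 was at 0.852 [0.839 to 0.865] of the control, but Car3 turned to 1.088 [1.060 to 1.117]. Car12 was then past 2-fold, at 2.237 times the control [2.132 to 2.347]. From the control to the 60 min library 1 of 5 was past 2-fold, against 8.39% of genes: Car12, at 34.1 CPM in the control, 45.7 in the 15 min and 69.1 in the 60 min library, a ratio of 2.03 [1.84 to 2.24] or 1.02 on the log2 scale, which fell short of 2-fold with 1 more gate marker (0.99) and with median of ratios scaling (0.89). Cells with at least 5 Car12 UMIs held 12.1% of its UMIs in the control (10 cells), 9.86% in the 15 min library (36 cells) and 29.7% in the 60 min library (40 cells). The highest cell held 11 Car12 UMIs in the control and 41 in the 60 min library. The part of such cells in the Car12 ratio was not tested. From the 15 min to the 60 min library 0 of 5 members were past 2-fold, against 11.4% of genes. The segment makeup moved with these values, with 569 S1 and 946 S2 cells in the control, 2033 and 3138 in the 15 min and 962 and 685 in the 60 min library. Within S1 alone the Car12 ratio of 60 min to control was 1.51 [1.34 to 1.71], and within S2 alone 1.47 [1.13 to 1.91]. Car4 from control to 15 min was 1.25 [1.09 to 1.44] in S1 and 1.32 [1.24 to 1.39] in S2. In S2, Car3 was past 2-fold in the 15 min library, at 0.378 of the control [0.327 to 0.437], where 3.48% of genes were past 2-fold, and it was back at 1.10 [0.933 to 1.303] in the 60 min library, where 3.2% were. The median gene of the proximal tubule moved by -0.20, 0.12 and 0.29 on the log2 scale in the 3 comparisons.

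**Figure D4:**
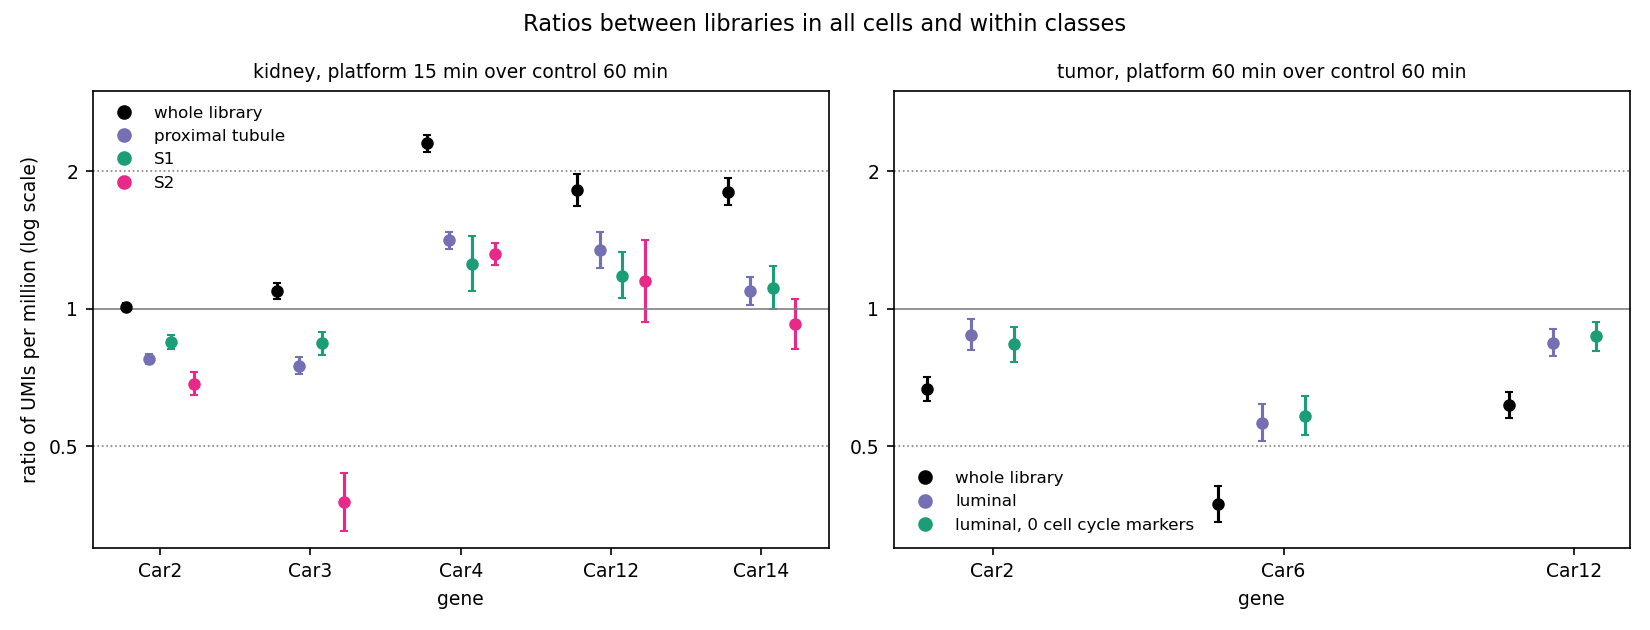
Ratio of levels (log scale) from control to 15 min in kidney (left) and from control to 60 min in the tumor (right), in the whole library and within classes, with exact 95% intervals; dotted lines mark 2-fold. The 2.30-fold ratio of Car4 in whole kidney libraries is 1.41 within the proximal tubule, and the 0.374 ratio of Car6 in whole tumor libraries is 0.563 in luminal cells.

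The thick ascending limb, a segment that also takes up bicarbonate, held Car2 at 231 CPM [211 to 252] and Car4 at 119, with Car4 at 103, 167 and 112 by library. Of its 510 cells, 241 passed the gate at the minimum of 2 markers. From the control to the 60 min library 2 of 5 members were past 2-fold, where 12.0% of genes were. These were Car15 (36 against 2 UMIs, ratio 4.98 [1.28 to 42.7]) and Car3 (23 against 1 UMI, 13 of them in 1 cell). From the 15 min to the 60 min library 2 of 5 were, against 13.5% (Car12 with 27 against 2 UMIs and Car3 with 23 against 0; with all deposited cells Car12 was at 76 against 16 UMIs, its log2 ratio turned to -0.020 and its call was lost), and from the control to the 15 min library 0 of 2 were, against 11.8%. Principal cells gave 562 and 558 CPM of Car2 in the control and 60 min libraries, a ratio of 0.992 [0.847 to 1.16], and none of 2 members past 2-fold (5.65% of genes). Intercalated cells likewise had 0 of 3 members past 2-fold between these libraries (8.29% of genes), with Car2 at 0.926 [0.845 to 1.01] and Car12 at 1.06 [0.771 to 1.46] of the control. These ratios moved with all deposited cells. Car2 in principal cells was then at 1.292 [1.159 to 1.443] of the control. In intercalated cells Car2 was at 0.799 [0.749 to 0.853] and Car12 at 1.928 [1.633 to 2.285]. Other tubule classes held few UMIs, with Car2 at 19.3 CPM in the distal convoluted tubule and 36.4 in the connecting tubule, and Car12 at 39.7 CPM [20.5 to 69.4] in the latter.

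Outside the tubule the levels were low. Endothelial cells held Car2 at 29.5, 8.92 and 22.1 CPM by library. It was past 2-fold lower in the 15 min library than the control (12 against 67 UMIs, ratio 0.302 [0.149 to 0.563], 1 of 1 member tested, where 6.07% of genes were). From control to 60 min 1 of 4 members was past 2-fold (Car4, 34 against 4 UMIs, 5.6% of genes, a call lost with 1 more gate marker, at a log2 ratio of 0.70). From 15 to 60 min 3 of 4 were, 2 higher and 1 lower, against 8.74% of genes. Even with all deposited cells the 15 min library held only 12 UMIs of Car2, 3 of Car3, 11 of Car4 and 5 of Car12. Car4 in this pair fell short of 2-fold with 1 more gate marker and with median of ratios scaling, at log2 ratios of -0.94 and -0.98. Car2 was at 46.9 CPM [40.8 to 53.7] in T and NK lymphocytes, 32.3 [27.0 to 38.5] in B lymphocytes and 7.60 [6.27 to 9.13] in macrophages and monocytes. Car2 UMIs over the sum of Car3 and Car4 UMIs were 1.41 in the proximal tubule, 1.77 in the thick ascending limb and 2.75 in the connecting tubule, and 164 in principal cells. The same quotient was 1.68 in macrophages and monocytes, 2.65 in endothelial cells, 4.88 in B lymphocytes, 9.17 in T and NK lymphocytes, 0.667 in granulocytes and 0.0408 in the mesangial and fibroblast class, whose Car3 came from 1 cell. The part of free RNA in these levels was not tested. In T and NK lymphocytes 1 of 2 members was past 2-fold from control to 60 min (Car12, 8 against 13 UMIs, 4.83% of genes), and 0 of 1 in each of the other 2 pairs (8.58% of genes from control to 15 min and 11.6% from 15 to 60 min). In macrophages and monocytes 0 of 1, 0 of 3 and 0 of 3 members were past 2-fold from control to 15 min, control to 60 min and 15 to 60 min (13.6, 5.09 and 17.5% of genes). In B lymphocytes 0 of 1 was in each pair (8.02, 5.22 and 10.9% of genes). Red blood cells are a known site of Car2. No kidney cell passed that gate, although 4, 5 and 5 of 5 red blood cell markers (globin genes and Alas2) were present at summed levels of 1.10, 78.5 and 331 CPM in the control, 15 min and 60 min libraries (Alas2 at 0 in the control). Their part in the library levels of Car2 was not tested. Kidney cells in no gate, at a median of only 2072 UMIs, held Car2 at 374 CPM and Car3 at 147.

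In the tumor, whole libraries held Car2 at 48.1 CPM [46.2 to 50.03] in the control, 42.5 [40.8 to 44.3] in the 15 min and 32.1 [30.7 to 33.6] in the 60 min library. The milk and saliva enzyme Car6 was at 30.6 [29.1 to 32.2], 30.2 [28.7 to 31.6] and 11.4 [10.6 to 12.4] CPM. Car12 was at 44.3 [42.5 to 46.1], 72.7 [70.5 to 75.0] and 27.3 [26.0 to 28.7] CPM. All 3 were lowest in the 60 min library, where luminal cells were 39.8% of kept cells, against 58.8 and 66.9% in the control and 15 min libraries. The same red blood cell markers (5 of 5 present in each library) summed to 186, 37.2 and 3.19 CPM in the same order, with 1 cell in that gate, and their part in the Car2 level was not tested. The kidney's other members were near absent. Car3 had 41, 16 and 34 UMIs, and 24 of the 41 in the control came from 1 ungated cell. Car4 had 5, 0 and 3, Car14 had 0, 3 and 2 and Car15 had 2, 4 and 0 UMIs. Between whole tumor libraries 1 of 4 members tested was past 2-fold from control to 15 min (Car3, 16 against 41 UMIs, ratio 0.361 [0.189 to 0.656], 7.37% of genes). Without the 1 cell that held 24 of the control's Car3 UMIs this was 16 against 17 UMIs, a ratio of 0.869 [0.411 to 1.83], and no member was then past 2-fold in this pair. From control to 60 min 1 of 4 was, Car6 at 0.374 of the control [0.341 to 0.410], against 11.8% of genes. From 15 to 60 min 3 of 4 were, against 15.5% of genes, with Car6 at 0.379 [0.346 to 0.416], Car12 at 0.375 [0.354 to 0.398] and Car3 at 2.01 [1.08 to 3.90]. The median gene moved by 0.21, 0.01 and -0.17 on the log2 scale.

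Luminal epithelial cells, the secretory lineage of the gland from which these tumors grow, held 97.9% of the Car6 UMIs, 93.8% of the Car12 UMIs and 66.4% of the Car2 UMIs in 9655 cells. Car12 was at 78.7 CPM [76.9 to 80.5] in luminal cells and at 114 [97.1 to 132] in the 161 basal cells, and at 2.78 or less in every class outside the epithelium. Basal cells gave 63.4 [34.7 to 106], 118 [81.9 to 165] and 123 [102 to 147] CPM of Car12 by library, and luminal cells 69.0, 98.6 and 58.2, so basal cells were the lower class in the control and the interval of basal cells took in the luminal level in the 15 min library. Car6 was at 40.6 CPM [39.4 to 42.0] in luminal cells and 2.003 [0.413 to 5.85] in basal cells. The basal level rested on 3 UMIs and moved with the settings, to 24.3 CPM with all deposited cells (60.2 in luminal cells) and 5.26 without cells in both gates. Within luminal cells 0 of 3 members were past 2-fold in any of the 3 pairs of libraries, where 6.03, 3.78 and 5.78% of genes were. The Car6 ratio of 60 min to control was 0.563 [0.512 to 0.618] there (48.9 to 27.5 CPM), and Car12 was 1.43-fold higher [1.35 to 1.51] in the 15 min library than in the control. With all deposited cells luminal Car6 was past 2-fold lower in the 60 min library. It was then at 0.451 [0.423 to 0.481] of the control and 0.480 [0.451 to 0.511] of the 15 min level. The median luminal gene moved by 0.19 from control to 15 min on the log2 scale. In basal cells 1 of 2 members was past 2-fold from 15 to 60 min (Car2, 40 against 5 UMIs, ratio 2.33 [0.918 to 7.55], 11.9% of genes; with all deposited cells its log2 ratio turned to -0.24 and the call was lost), and 0 of 2 from control to 60 min and 0 of 1 from control to 15 min (13.9 and 12.3% of genes).

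Among kept cells Car6 was concentrated in few cells. The highest 1% of luminal cells (97 cells) held 55.5% of its luminal UMIs, with up to 136 in 1 cell, against 13.7% for Car12 and 17.1% for Car2. The share was 54.1, 55.3 and 53.8% in the control, 15 min and 60 min libraries. Cells outside the limits on genes and mitochondrial UMIs held 65.7% of the tumor's Car6 UMIs. They are not part of these shares or of the comparison of luminal cells by Car6 that follows. Luminal cells with at least 5 Car6 UMIs (157 cells, chosen after values were seen) were deeper than the 8619 cells with 0, at medians of 14165 and 8833 UMIs. Per UMI they held more Car12 (182 against 70.9 CPM) and less Car2 (32.9 against 48.8), the latter not in the 60 min library (51.1 against 45.3). Car12 was higher in them in each library (147 against 61.3, 261 against 88.3 and 109 against 55.0 CPM). The water channel gene Aqp5 was at 3287 against 990.0 CPM and was higher in each library. The milk protein gene Lalba was at 2451 against 1643 CPM, while Csn3, a casein, was at 10405 against 14187. Salivary acinar tissue is a known source of Car6, and its 5 markers summed to 8.53, 37.7 and 8.24 CPM in the control, 15 min and 60 min libraries (4, 4 and 3 of 5 present), with Smr3a at 0 in the control, Bpifa2 in the 15 min and both in the 60 min library. In Car6-high cells Dcpp1 was at 84.6 and Prol1 at 45.3 CPM, against 19.9 and 3.16 in cells with 0 Car6 UMIs. Bpifa2, Smr3a and Amy1 had 0 UMIs in Car6-high cells. They were at most at 0.286 CPM in cells with 0 Car6 UMIs, too low to compare. The part of salivary cells in the Car6 level was not tested. Luminal cells with at least 3 of 5 milk markers (2240 cells) held 49.8 CPM of Car6, against 37.1 in the others, a ratio of 1.34 [1.26 to 1.44] that was 1.33, 1.39 and 1.20 by library.

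Luminal cells that carried more cell cycle markers held more Car2. With 0, 1, 2 and 3 to 5 of 5 markers (8608, 789, 99 and 159 cells) Car2 was at 44.0, 54.3, 80.9 and 139 CPM. The last class exceeded the first by 3.17-fold [2.78 to 3.59]. By library the ratio was 2.38 [1.92 to 2.94], 3.31 [2.43 to 4.41] and 4.07 [3.34 to 4.93]. Car12 ran the other way at 79.6, 80.3, 57.5 and 44.8 CPM, a ratio of 0.563 [0.449 to 0.697]. Its ratio was below 1 in each library at 0.779, 0.266 and 0.729, with intervals that reached past 1 in the control and 60 min libraries. Car6 was at 40.9, 42.5, 50.7 and 17.4 CPM, and the last value rested on 33 UMIs, 28 of them in the control.

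The highest Car2 in the tumor was outside the epithelium. T and NK lymphocytes held 263 CPM [250 to 277], against 47.3 [45.9 to 48.7] in luminal cells, and 263, 304 and 235 CPM by library. They were 829 of 17562 kept cells but held 22.9% of the Car2 UMIs. A Car2 UMI was found in 49.1% of them and in 1.38% of macrophages and monocytes, at median depths of 6420 and 11032 UMIs (16.8 and 0.146% after thinning). Car2, the 1 member tested there, was past 2-fold in none of the 3 pairs (10.7, 9.33 and 9.75% of genes). Lymphocytes with a UMI of Ncr1, an NK cell receptor gene, held 388 CPM, those with Trdc, the delta T cell receptor constant gene, held 326 and those with Cd8a held 288. The 88 lymphocytes with a Cd4 UMI, the helper and regulatory T cell marker, held 1 Car2 UMI in all, at 2.47 CPM [0.0624 to 13.7]. Cells with Ncr1 thus exceeded cells with Cd4 by a ratio of 157 [28.1 to 6218]. The same order held by library, with 342, 451 and 386 CPM in cells with Ncr1 and 0, 0 and 1 UMIs in cells with Cd4. These subsets were drawn after the Car2 values were seen. In kidney the same class held 46.9 CPM.

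**Figure D5:**
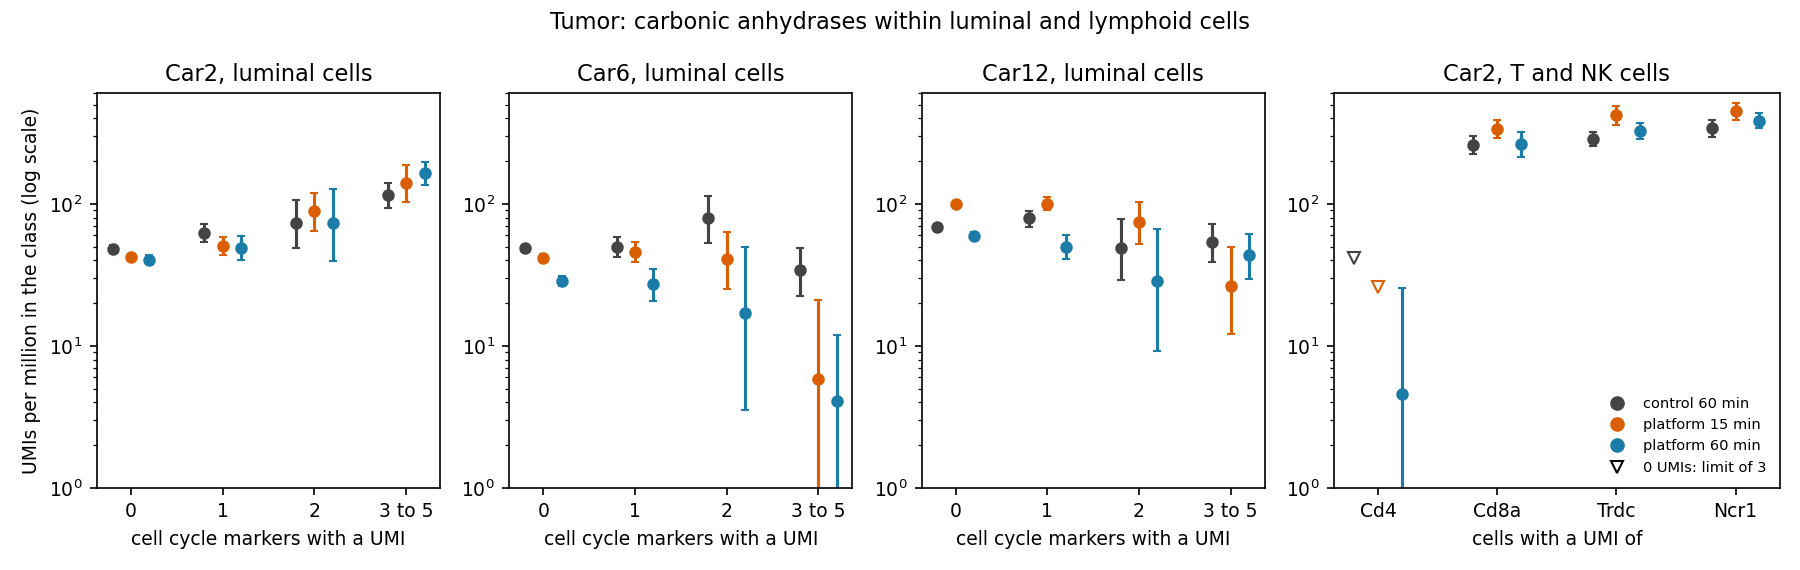
Levels in tumor subsets for each library, in CPM (log scale), with exact Poisson 95% intervals and triangles at the limit of 3 counts. Car2 rises with the number of cell cycle markers in luminal cells while Car12 is lower at 3 to 5 markers, and Car2 is high in lymphocytes with Cd8a, Trdc or Ncr1 but near 0 in those with Cd4.

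Among other tumor classes Car2 was at 22.9 CPM [19.98 to 26.2] in endothelial cells, 9.60 in pericytes and at most 2.64 in fibroblasts, macrophages and granulocytes. In macrophages and monocytes 1 of 2 members was past 2-fold in each pair, all on few UMIs. It was Car12 from control to 15 min (19 against 7 UMIs, 15.5% of genes), Car3 from control to 60 min (16 against 4, 7.85%) and Car12 from 15 to 60 min (9 against 19, 8.41%). Endothelial cells had 0 of 1 member past 2-fold in each pair (5.15, 5.98 and 7.86% of genes). Of the 8 tumor Car4 UMIs, 4 were in granulocytes. Markers of skeletal muscle, a known site of Car3, summed to 16.7 CPM in the control (4 of 4 present), 1.20 in the 15 min (3 of 4, Myh4 at 0) and 1.36 in the 60 min library (4 of 4). Those of adipocytes, another such site, summed to 0.434, 0.328 and 0.379 CPM (4, 3 and 4 of 4 present, Cidec at 0 in the 15 min library). Car3 was at 0.809, 0.292 and 0.586 CPM in the same libraries, and the part of either tissue in it was not tested.

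Of the 9 other carbonic anhydrase symbols, 4 in kidney and 5 in the tumor passed 5 CPM in a class of at least 20 cells, segments and other subsets not counted. Among these classes in kidney, Car8, a relative without enzyme activity, and Car7, a cytosolic enzyme, were highest in endothelial cells at 157 and 26.7 CPM, Car5b, a mitochondrial enzyme, in the proximal tubule at 29.3 and Car9, a tumor-associated surface enzyme, in macrophages and monocytes at 5.60. The next class for Car5b was close, at 27.2 CPM. By segment of the proximal tubule, Car9 was at 6.13 CPM [5.38 to 6.95] in S2 and 10.4 [4.75 to 19.7] in S3, and Car5a, the other mitochondrial enzyme, at 16.2 [8.83 to 27.1] in S3, from 14 UMIs. In the tumor, Car8 (32.9 CPM), Car5b (31.6) and Car9 (12.7) were highest in luminal cells, Car13 (12.0) in basal cells and Car11 (6.72) in pericytes. The interval of basal Car13 [7.12 to 19.0] took in the endothelial level of 11.8 CPM. That of Car11 in pericytes [2.70 to 13.8] took in the 3.67 CPM of the next class. Car8 in kidney endothelium held at 161, 166 and 155 CPM by library.

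The acid-base transport list of 28 genes gave the setting of the members. The 8 highest in kidney were Atp6v1e1 (2606 CPM), Atp6v1a (1394), Atp6v0a4 (736) and Slc26a4 (549, a gate marker) with their maximum in intercalated cells, Rhcg (854) and Rhbg (673) in principal cells, Slc4a4 (574) in the proximal tubule and Slc16a3 (1024) in granulocytes. The Atp6v genes encode proton pump subunits, Slc26a4 a chloride and bicarbonate exchanger, Rhcg and Rhbg ammonia channels, Slc4a4 the sodium bicarbonate cotransporter and Slc16a3 a lactate transporter. The intercalated gate was itself built mainly on other Atp6v genes, so the maxima of the pump genes there are not independent of the gate. From the control to the 15 min library 3 of the 24 listed genes tested were past 2-fold higher and 12 lower, where 2.23% of all genes were higher and 28.5% lower. From the control to the 60 min library 1 of 25 was higher and 0 lower, against 10.5 and 1.18% of all genes. Within the proximal tubule 0 were higher and 1 lower of 16 from the control to the 15 min library (0.828 and 2.56% of all genes), and 1 higher and 0 lower of 18 to the 60 min library (8.04 and 0.351%). In the tumor the 8 highest were Aqp1 (1045 CPM), Hif1a (279) and Slc4a7 (46.1) with their maximum in endothelial cells, Slc16a3 (1015) and Atp6v1e1 (477) in granulocytes, Atp6v1a (132) in macrophages and monocytes, Slc4a4 (37.3) in fibroblasts and Slc4a2 (30.1) in luminal cells. Within luminal cells 2 of 18 were past 2-fold higher and 0 lower from control to 15 min (2.38 and 3.65% of all genes), and 1 of 17 higher and 2 lower from control to 60 min (2.18 and 1.6%).

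By likeness across 30 sums of kidney class and library, Car2 and Car12 were each among the 3 genes closest to the other, at a Pearson r of 0.87. Car2 was also close to 1700102H20Rik (0.87) and Inca1 (0.83), and Car12 to Dact2 (0.84) and Palm3 (0.80). Car3 was closest to Ugt2b37 (0.94), Timd2 (0.93) and Vil1 (0.92), Car4 to Slc22a4 (0.80), Tcf24 (0.78) and Erc2 (0.78), and Car14 to Slc17a1 (0.89), Sult1b1 (0.88) and Myo15b (0.87). Across 23 tumor sums Car12 was closest to Sox10 (0.97), Alpl (0.97) and Esrp1 (0.97), Car6 to Tspan1 (0.95), Gdpd2 (0.93) and Phlda2 (0.90), and Car2 to Prkcz (0.92), Rps27 (0.89) and Pdcd4 (0.87). Sums of a library share its depth and its free RNA, so these values describe patterns only.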

How the data were processed

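Kidney and mammary tumor cells were profiled by droplet single-cell sequencing in 6 libraries. Per the labels and the study's methods, the authors aligned reads to mm10 with Cell Ranger 3.1.0, merged each tissue's libraries by an aggregation step that thins reads to equal depth, and deposited UMI counts of unfiltered cells. The study's bounds were then applied here: 200 to 3000 genes and at most 50% mitochondrial UMIs in kidney, 200 to 4000 genes and 25% in tumor. The upper limit on genes was the only removal of doublets.

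Cells were gated with marker lists, at 3 markers with a UMI for lists of at least 5 genes and at 2 for shorter ones. Cells in more than 1 gate were left out, except that those in both gates of connecting tubule and principal cells, luminal and basal cells, or fibroblasts and pericytes went to the second of the pair, a rule added after the gates had been seen. A proximal tubule cell went to a segment if it held at least 2 markers of it and more than of the others. The members and lists were chosen with earlier results of these data known. All 7 members are named, other carbonic anhydrases at over 5 CPM in a class, the acid-base list by its 8 highest, and likeness by the 3 highest Pearson r of log2(CPM + 1) among genes with at least 100 UMIs, gate markers left out.

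UMIs were summed per class and library and scaled to 1000000. With 1 library per condition no test was run; sums carry exact Poisson, shares exact Clopper-Pearson and ratios exact conditional 95% intervals, for counting error only. A ratio counted as past 2-fold from 20 UMIs in the pair and 20 cells in each library, and its background is the share of all genes past it. Of the red blood cell list, 1 gene is not reported here and is left out of the summed levels. Shares were thinned to 1000 UMIs as exact expectations. Alternatives were all deposited cells, 2 other scalings, 50 UMIs, a fold of 1.5 and 1 more marker. Scripts used Python 3.11.15 with numpy 2.4.6, pandas 2.3.3, scipy 1.17.1 and matplotlib 3.10.9, and the ratio step was tested on simulated counts.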

Additional observations from a re-analysis of the deposited data

Results flagged for a closer look

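From the control to the 15 min platform library, Car3 moved by 0.13 on the log2 scale in kidney and by -1.47 in the tumor, and from the control to the 60 min library Car12 moved by 0.35 in kidney and by -0.70 in the tumor. The tissues moved in opposite directions in both cases, each with 1 library per condition, and the difference between tissues was not tested. The tumor Car3 values rest on 41 and 16 UMIs, and without 1 control cell that held 24 of the 41 the tumor change in Car3 is -0.20.

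Cells outside the limits on genes and mitochondrial share entered no comparison of the report, only the alternative with all deposited cells. They held 62.5% of the kidney UMIs of Car2, 68.9% of Car3, 77.1% of Car12, 61.9% of Car14 and 59.5% of Car15, and in the tumor 53.6% of Car2, 57.9% of Car4 (of 19 UMIs) and 65.7% of Car6.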

How the results depend on the processing

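Counts of members past 2-fold depended on the settings as follows, each given for the 15 min library with control, 60 min with control and 60 min with 15 min, with the share of all genes past the same limit in the same pairs (pooled over the classes with a member tested). As reported they were 2, 1 and 3 of 6 between kidney libraries (30.8, 11.6 and 48.3% of genes), 1 of 11, 5 of 25 and 5 of 19 within kidney classes (7.96, 6.67 and 12.2%), 1, 1 and 3 of 4 between tumor libraries (7.37, 11.8 and 15.5%), and 1 of 8, 1 of 9 and 2 of 9 within tumor classes (9.45, 7.36 and 8.24%). A fold of 1.5 gave 4 and 2 of 6 for the first and second comparison of kidney libraries (48.3 and 31.3%), 3 of 11, 10 of 25 and 11 of 19 within kidney classes (23.5, 19.1 and 29.2%), 2 and 2 of 4 for the first and second comparison of tumor libraries (23.1 and 23.2%), and 3 of 8, 4 of 9 and 4 of 9 within tumor classes (25.5, 19.9 and 23.7%). At least 50 UMIs gave 1 of 5 for the first comparison of kidney libraries (27.6%), 1 of 15 and 1 of 11 for the last 2 within kidney classes (3.0 and 7.61%), and 0 of 5, 0 of 7 and 0 of 6 within tumor classes (4.35, 3.64 and 4.51%). All deposited cells gave 3 of 15, 12 of 30 and 8 of 25 within kidney classes (8.53, 7.04 and 12.3%), and 2 and 3 of 10 for the first and second within tumor classes (9.0 and 7.32%). Scaling by the median of ratios gave 6 of 6 from 15 to 60 min in kidney libraries (49.3%), and 2 of 8 and 2 of 9 for the first and second within tumor classes (8.65 and 7.16%). A gate with 1 more marker gave 3 of 23 for 60 min with control within kidney classes (6.75%). Without cells in neighbouring gates, an alternative chosen after seeing the data, 1 of 7 was past 2-fold from 15 to 60 min within tumor classes (7.72%). Among ratios past 2-fold as reported, 2 changed direction with all deposited cells, both from 15 to 60 min. These were Car12 in the thick ascending limb, to -0.020, and Car2 in tumor basal cells, to -0.24 on the log2 scale. Some smaller ratios turned as well. In whole kidney libraries from control to 60 min, Car2, Car3 and Car14 were lower in kept cells. With all deposited cells they were at 1.017 [1.002 to 1.031], 1.215 [1.184 to 1.246] and 1.215 [1.159 to 1.274] times the control. Without the 1 control cell that held 24 of its Car3 UMIs, an alternative chosen after seeing the data, the tumor Car3 ratio was -0.20 from control to 15 min (-1.47 with it) and turned from -0.47 to 0.80 from control to 60 min. The other causes were not tested. Leaving out cells whose barcode occurs in another library, also chosen after seeing the data, moved no count by over 1.5 times. It turned the direction of no ratio past 2-fold as reported. No paired analysis was possible because there is 1 library per condition, and for the same reason no replicate could be left out.

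Depth limits Car15 in kidney and Car3, Car4, Car14 and Car15 in the tumor, whose totals of 5 to 118 UMIs leave most class and library differences not detectable. Intervals leave out differences between animals, since the libraries of a tissue shared a source mouse, and between repeat digests, which cannot be told apart from the processing here. The removal of UMIs by the aggregation step cannot be undone.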
